A study of Mus musculus with 12 samples.

Results

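Genes that supply cells with amino acids were followed, 10 in all, across wild-type and CnAb1 transgenic hearts, with and without pressure overload. Asns, Aldh18a1 and Pycr1 encode enzymes of asparagine and proline synthesis. Slc7a1, Slc7a3, Slc7a5, Slc7a11, Slc3a2, Slc1a4 and Slc1a5 encode amino acid transporters or their subunits. The 10 genes were chosen by name, with earlier results of these data known. Every probe whose transcript accession maps to one of them was read. Shares and medians of these genes beside those of all named genes therefore describe the set and test nothing. Of the 10, 9 had a named probe, with 11 probes in all, and 8 genes with 10 probes were bright enough to be tested, among 16645 named genes tested. No probe could be assigned to Pycr1, which was not analysed here. Slc7a11 was well above background on 2 of 12 arrays and is described without a test.

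Left ventricular RNA of C57/Bl6 mice was hybridised to 3 arrays in each of 4 groups. Mice were wild type or overexpressed CnAb1, a form of calcineurin A beta that arises by alternative splicing, and underwent either sham surgery or TAC, a constriction of the aorta that makes the left ventricle work against a higher pressure. Source names and protocol place all hearts 21 days after surgery. The labels name neither the promoter of the transgene nor the ages of the mice, and do not say whether each array is a separate animal, so p-values measure the spread between arrays.

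Asparagine synthetase, the product of Asns, makes asparagine from aspartate with glutamine as the nitrogen donor. Proline is made from glutamate by the Aldh18a1 product, P5CS, followed by a reductase such as that of Pycr1. Slc3a2 encodes the heavy chain that carries the light chains Slc7a5, an exchanger of large neutral amino acids, and Slc7a11, which imports cystine in exchange for glutamate. Slc7a1 and Slc7a3 import arginine and other cationic amino acids, and Slc1a4 and Slc1a5 exchange small neutral amino acids, glutamine among them for Slc1a5. Many of these genes are known targets of ATF4, a transcription factor whose translation rises when the initiation factor eIF2 is phosphorylated, for instance when amino acids are scarce. ATF4 and its C/EBP partners bind a composite element, written here as TGATGNAA.

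Promoter sequence was read from RefSeq's GRCm38.p6 table, which held 8 promoters of 7 of the 10 genes. Slc7a3, Slc7a5 and Slc1a5 had no entry. The stretch from -120 to -1 relative to the transcription start is shown 5′ to 3′ for the 4 genes with a match of the composite element or an E-box in it, since Asns and Aldh18a1 are the enzyme genes of the set that were higher in transgenic hearts after sham. Capitals mark the matches.
Asns, chr6:7693210-7693329, minus strand: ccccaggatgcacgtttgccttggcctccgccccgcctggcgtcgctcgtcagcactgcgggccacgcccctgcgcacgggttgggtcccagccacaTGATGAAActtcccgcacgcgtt
Aldh18a1, chr19:40588464-40588583, minus strand: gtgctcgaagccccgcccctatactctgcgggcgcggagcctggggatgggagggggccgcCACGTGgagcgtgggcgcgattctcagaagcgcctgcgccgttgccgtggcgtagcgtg
Pycr1, chr11:120643749-120643868, minus strand: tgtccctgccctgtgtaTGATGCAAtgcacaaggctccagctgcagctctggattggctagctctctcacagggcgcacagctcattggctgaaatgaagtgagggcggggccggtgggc
Slc7a11, chr3:50443614-50443733, minus strand: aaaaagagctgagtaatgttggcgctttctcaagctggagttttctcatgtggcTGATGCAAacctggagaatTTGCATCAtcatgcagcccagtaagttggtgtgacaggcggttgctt
TGATGAAA began at -23 in Asns, TGATGCAA at -103 in Pycr1, and Slc7a11 held TGATGCAA at -66 and, on the other strand, TTGCATCA at -47. In the Aldh18a1 promoter the E-box CACGTG began at -59. The promoter of Slc1a4 held TTGCATCA from -4, running across the start. An antioxidant response match, TGACNNNGC, was found on the other strand in 1 of the 2 Slc7a1 promoters (GCGCTGTCA at -11) and further upstream in Asns (GCAGTGTCA at -172). Slc3a2 matched none of the searched motifs in its window, and no match overlapped another. Over 32851 promoters of the same length, from 250 bases before to 50 after the start and on both strands, TGATGNAA occurred in 3.97%, CACGTG in 7.15% and TGACNNNGC in 12.4%. A match describes these letters only and does not show that a factor binds there.

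Levels are log2 processed signals minus each array's 75th percentile, so a level of 0 lies at that percentile and a difference of 1 is a 2-fold change. A gene with several probes is represented by its brightest, with the dimmer one beside it. Differences are given ± standard error from limma over all 12 arrays, with Benjamini-Hochberg adjusted p over all 30347 probes tested and 0.05 as the threshold. Levels of different genes cannot be set against each other on such arrays. On transgenic sham array 2 the background was raised, with 37% of probes well above it against 60.2% to 78.1% on the others. Before scaling, the 75th percentile was 8.89 to 9.16 on wild-type sham arrays, 9.78 to 9.83 on wild-type TAC arrays, 9.40 to 9.42 on transgenic sham arrays and 9.40 to 9.77 on transgenic TAC arrays. The arrays came from 5 slides. A fit with slide as a fixed block, the one meant below unless a random block is named, takes its differences from slides that hold more than 1 group, which leaves out transgenic sham array 3 and wild-type sham array 3, each the only array here from its slide, and transgenic TAC arrays 1 and 2, which shared a slide with no other group. A fit with slide as a random block uses every array, at a within-slide correlation of 0.224. The probe of Ppp3cb, the gene of calcineurin A beta, measured 1.64 to 1.72 after sham in wild-type and 1.29 to 1.48 in transgenic hearts (-0.27 ± 0.09, adjusted p = 0.181). The files do not say whether the CnAb1 transcript contains that probe, so it does not check the labels. The 9 cardiomyocyte markers were all well above background on 12 of 12 arrays.

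The comparison of transgenic with wild-type hearts after sham asks what CnAb1 does without pressure overload, and Asns and Slc7a3 had the highest estimates among the 8 genes, close to each other. Asns, Aldh18a1, Slc7a3 and Slc1a5 were higher in transgenic hearts, 4 of the 8 genes tested, and none was lower. Among all named genes 0.787% passed in the higher and 0.763% in the lower direction. The arrays of both groups did not overlap for 5 of the 8 genes, against 25.4% of all named genes. The median difference was 0.83 for the 8 genes and -0.03 for all named genes. The set was chosen with earlier results known, so these contrasts are descriptive. Slc7a3 and Aldh18a1 each correlated with Asns at 0.95 over the 12 arrays, so their calls do not count as separate findings. Of the markers of 7 cell types (cardiomyocyte, fibroblast, macrophage, endothelial, smooth muscle and pericyte, T and B cell, erythroid), 0 passed by limma in this comparison. Fibroblast markers were on average 0.53 to 0.72 above the wild-type sham mean on transgenic sham arrays, cardiomyocyte markers 0.33 to 0.35 below it (-0.35 to -0.33), and their part in these differences was not tested.

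In wild-type hearts, TAC against sham asks how pressure overload acts without the transgene, and the exchangers of small neutral amino acids changed in opposite directions. Slc1a5 rose and Slc1a4 fell, 1 and 1 of 8 genes, where 12.3% of all named genes rose and 11.8% fell. These shares lie near that background. Arrays did not overlap for 5 of the 8 genes, against 50.2% of all named genes. The medians were 0.23 for the 8 genes and -0.05 for all named genes. Both this comparison and that of genotype after sham use the wild-type sham arrays, so shared directions between them are no independent evidence. Fibroblast markers rose on 6 of 9 genes in this comparison and cardiomyocyte markers fell on 6 and rose on 1 of 9. Endothelial markers rose on 4 and fell on 1 of 7, smooth muscle and pericyte markers rose on 3 of 6, macrophage markers on 2 of 7, T and B cell markers fell on 1 of 10, and 0 of 4 erythroid markers passed. Mean deviations from the wild-type sham mean were 1.80 to 2.16 for fibroblast and -0.54 to -0.47 for cardiomyocyte markers on wild-type TAC arrays. Fewer cells of a type and less RNA per cell cannot be told apart in such samples, and the part of these shifts in the amino acid genes was not tested.

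TAC against sham in transgenic hearts asks how pressure overload acts when CnAb1 is overexpressed. None of the 8 genes passed by limma (adjusted p from 0.786 to 0.989), as among all 16645 named genes (0% called), although 5 of 8 had an unadjusted p under 0.05 against 6.46% of all named genes. Their median was -0.82, against 0.00 for all named genes. Arrays did not overlap for 2 of 8 genes, Slc7a1 and Slc1a5, against 9.67% of all named genes. After TAC, transgenic hearts differed from wild-type hearts in Slc1a5 alone among the 8, which was lower (1 of 8), against 2.81% of all named genes lower and 1.75% higher, and arrays did not overlap for 4 of 8 against 35.2%. The interaction, the transgenic response to TAC minus the wild-type response, passed for Slc1a5 as well, in the lower direction, in which 4.4% of named genes passed (3.99% in the higher). After TAC, 4 of 9 fibroblast, 3 of 6 smooth muscle and pericyte, 1 of 9 cardiomyocyte and 1 of 7 endothelial markers were lower in transgenic hearts. In the interaction 5 of 9 fibroblast, 3 of 7 endothelial and 1 of 6 smooth muscle and pericyte markers passed in the lower and 4 of 9 cardiomyocyte markers in the higher direction, and their part in Slc1a5 was not tested. Without wild-type sham array 1, 0 of 30347 probes passed the interaction by limma. With slide as a fixed block limma called none of the 8 genes in any of the 5 comparisons. With slide as a random block it called 2 (Slc1a4, Slc1a5) for TAC in wild-type hearts, 3 (Asns, Aldh18a1, Slc1a5) for genotype after sham, 0 for TAC in transgenic hearts, and Slc1a5 alone for genotype after TAC and for the interaction.

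**Figure D1:**
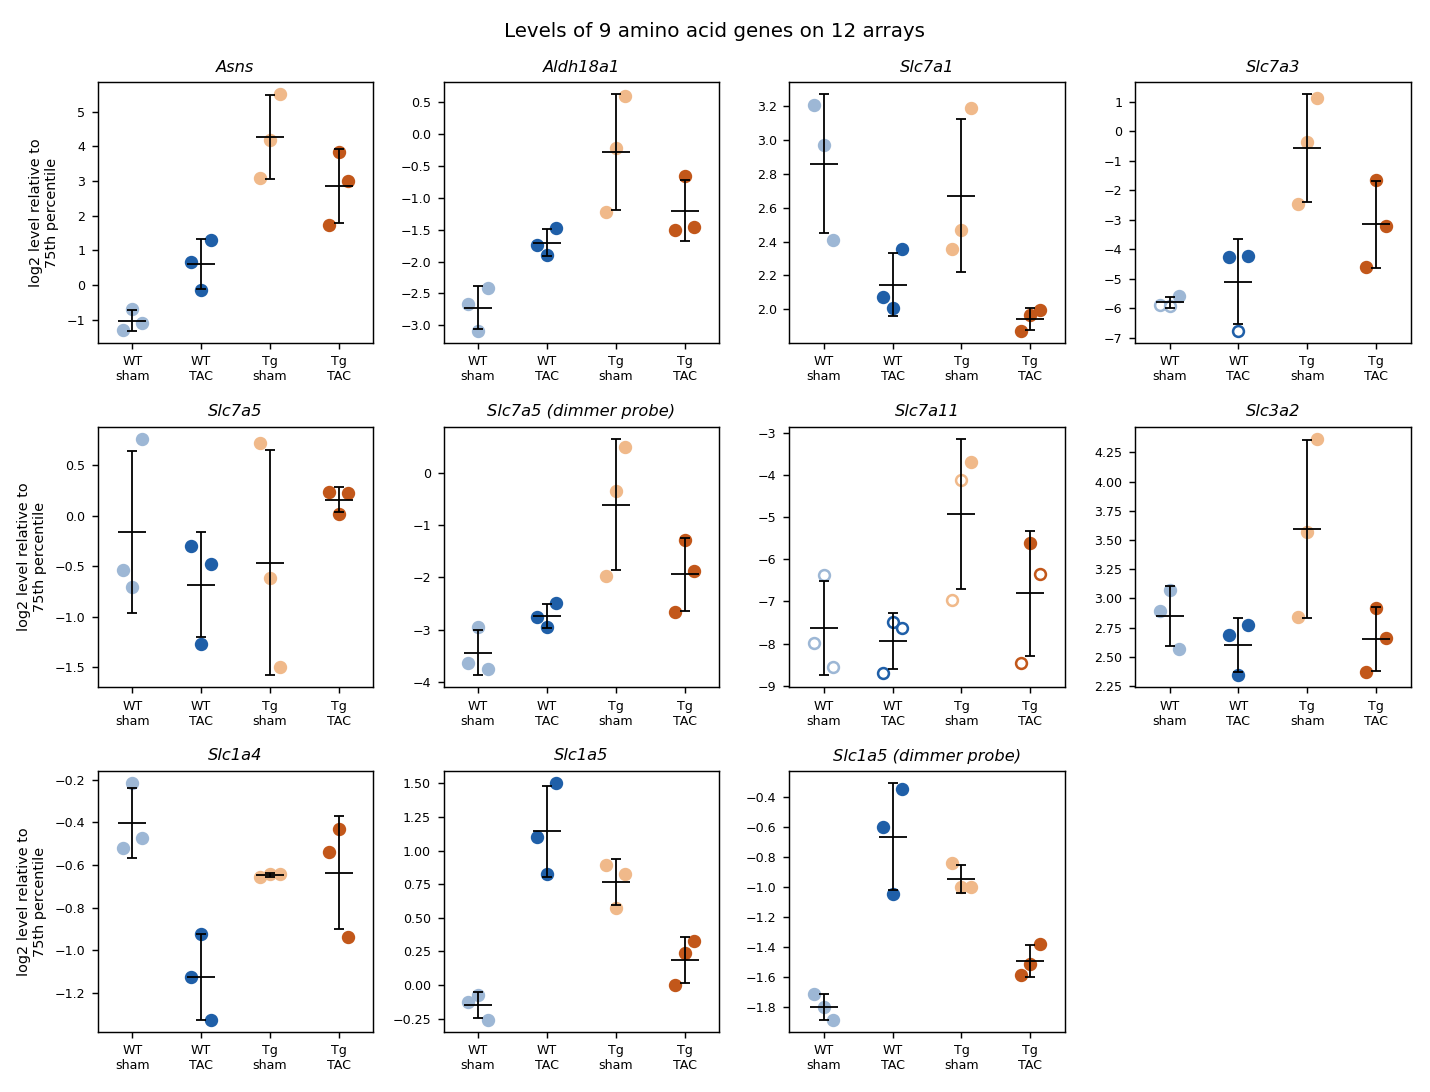
Levels of the 9 measured genes on 12 arrays (y axis: log2 level relative to the array's 75th percentile, with a range of its own in each panel; x axis: WT, wild type, and Tg, transgenic, after sham or TAC). Points are arrays, open where the probe was not well above background, and black lines give mean ± SD of 3 arrays; Asns ran from -1.29 to -0.71 on wild-type sham and from 3.08 to 5.51 on transgenic sham arrays.

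Asns measured -1.29, -0.71 and -1.10 on the wild-type sham arrays (probe A_55_P1959748). On wild-type TAC arrays it measured 0.66, -0.14 and 1.30, on transgenic sham arrays 3.08, 4.19 and 5.51, and on transgenic TAC arrays 1.72, 3.84 and 3.01. Every transgenic array stood above every wild-type array. After sham the transgenic level was 39.2-fold higher (5.29 ± 0.67, adjusted p = 0.00717). On slide 3, which held transgenic sham array 2 and wild-type sham arrays 1 and 2, the difference was 5.19, and with slide as a block it was 4.55 ± 0.93 (adjusted p = 0.125; 0.0009997 to 0.125 over 25 alternatives). The call was kept with each of the 12 arrays left out in turn, and was lost with slide as a fixed block and in a fit of these groups alone (adjusted p = 0.0811). From lowest to highest the group means ran wild-type sham (-1.03 ± 0.30, SD, n = 3), wild-type TAC (0.61 ± 0.72), transgenic TAC (2.86 ± 1.07) and transgenic sham (4.26 ± 1.21). No neighbours in this order passed by limma over all 12 arrays. The wild-type difference with TAC was 1.64 ± 0.67 (adjusted p = 0.117), the genotype difference after TAC 2.26 ± 0.67 (adjusted p = 0.0870) and the transgenic difference with TAC -1.40 ± 0.67 (adjusted p = 0.787). The wild-type difference passed in a fit of the wild-type groups alone (1.64 ± 0.38, adjusted p = 0.0337). The genotype difference after TAC passed with detection required on all 12 arrays (2.26 ± 0.62, adjusted p = 0.0299). Within slides the wild-type, genotype and transgenic differences were 0.86, 2.04 and -0.07, with a single array in 1 or both groups. The interaction was -3.04 ± 0.94 and missed the threshold (adjusted p = 0.0822). It passed without transgenic sham array 1 (-3.63, adjusted p = 0.0471; 0.0295 to 0.350 over 24 alternatives).

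Aldh18a1, the entry enzyme of proline synthesis from glutamate, followed the order of Asns (probe A_51_P215887). It measured -2.67, -3.09 and -2.42 on wild-type sham arrays and -1.74, -1.90 and -1.47 on wild-type TAC arrays. The transgenic arrays measured -1.21, -0.22 and 0.60 after sham and -1.51, -0.65 and -1.45 after TAC. The wild-type sham arrays lay below all the others, while transgenic TAC arrays overlapped both wild-type TAC and transgenic sham arrays. After sham the transgenic level was 5.46-fold higher (2.45 ± 0.41, adjusted p = 0.0291). The difference was 2.66 within slide 3 and 2.29 ± 0.46 with slide as a block (adjusted p = 0.123; 0.00564 to 0.213 over 25 alternatives). It missed the threshold without transgenic sham array 2, transgenic TAC array 3, wild-type TAC array 1 or any 1 of the wild-type sham arrays (2.27 to 2.60, adjusted p from 0.0528 to 0.117). The wild-type difference with TAC, 1.03 ± 0.41, did not pass (adjusted p = 0.114), but did without transgenic sham array 1 or transgenic sham array 3, where only the estimate of the spread changed (adjusted p from 0.0418 to 0.0475). It also passed in a fit of the wild-type groups alone (adjusted p = 0.0240). The other differences were -0.92 ± 0.41 for TAC in transgenic hearts, 0.50 ± 0.41 for genotype after TAC and -1.95 ± 0.58 for the interaction (adjusted p = 0.786, 0.537 and 0.0742). Without transgenic sham array 1 the interaction passed (-2.42, adjusted p = 0.0268).

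The cationic transporters differed from each other. Slc7a3 (probe A_55_P1988384) was dim in wild-type hearts, where it was well above background on 1 of 3 sham and 2 of 3 TAC arrays, and was well above background on all 6 transgenic arrays. It measured -5.91, -5.92 and -5.58 on wild-type sham, -4.28, -6.77 and -4.24 on wild-type TAC, -2.48, -0.36 and 1.14 on transgenic sham and -4.61, -1.65 and -3.21 on transgenic TAC arrays. Transgenic sham arrays lay above all wild-type arrays, and transgenic TAC arrays overlapped both transgenic sham and wild-type TAC arrays. After sham the difference was 5.23 ± 1.02 (37.6-fold, adjusted p = 0.0450). It was 4.54 ± 0.97 when signals not well above background were raised to the lowest well-measured signal of their array (adjusted p = 0.0764), and 2.46 ± 0.80 under normexp background correction (adjusted p = 0.635; 0.0194 to 0.635 over 24 alternatives). Within slide 3 it was 5.55, and with slide as a block 4.23 ± 1.49 (adjusted p = 0.214). The call was lost without transgenic sham array 2 or 3, transgenic TAC array 3, wild-type TAC array 1 or 3 or any 1 wild-type sham array (4.38 to 5.34, adjusted p from 0.0535 to 0.166). Differences with TAC were 0.70 ± 1.02 in wild-type and -2.59 ± 1.02 in transgenic hearts, and the genotype difference after TAC was 1.94 ± 1.02 (adjusted p = 0.701, 0.786 and 0.306).

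Slc7a1, the widely expressed cationic transporter, stood lower on TAC than on sham arrays in both genotypes, without passing in either (probe A_66_P106661). It measured 3.20, 2.97 and 2.41 on wild-type sham against 2.07, 2.01 and 2.36 on wild-type TAC arrays, and 2.35, 2.47 and 3.19 on transgenic sham against 1.87, 1.97 and 2.00 on transgenic TAC arrays. In each genotype the sham and TAC arrays did not overlap. The differences were -0.71 ± 0.25 in wild-type (adjusted p = 0.0705) and -0.72 ± 0.25 in transgenic hearts (adjusted p = 0.786). The interaction was -0.01 ± 0.35, which leaves room for a difference between the responses of either sign. The wild-type difference passed without transgenic sham array 3 or wild-type sham array 3 (-0.94 to -0.71, adjusted p from 0.0286 to 0.0386). The genotype differences were -0.19 ± 0.25 after sham and -0.20 ± 0.25 after TAC (adjusted p = 0.736 and 0.708). Within slides the TAC differences were -1.08 in wild-type and -0.36 in transgenic hearts.

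The heavy chain Slc3a2 did not pass in any comparison (probe A_51_P472901). It measured 2.89, 3.08 and 2.57 on wild-type sham, 2.69, 2.34 and 2.77 on wild-type TAC, 2.84, 3.57 and 4.37 on transgenic sham and 2.37, 2.92 and 2.66 on transgenic TAC arrays. Transgenic sham arrays lay above all wild-type TAC arrays, other pairs of groups overlapped, and sham arrays 2 and 3 of the transgenic hearts exceeded every other array. The genotype difference after sham was 0.75 ± 0.33 (adjusted p = 0.291) and the TAC difference in transgenic hearts -0.94 ± 0.33 (adjusted p = 0.786). In wild-type hearts TAC gave -0.25 ± 0.33, and genotype after TAC 0.05 ± 0.33 (adjusted p = 0.679 and 0.955).

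The light chain Slc7a5 had 2 probes for the same transcript accession that went different ways in most comparisons. The brighter (A_55_P2017972) measured -0.54, -0.71 and 0.77 on wild-type sham, -0.30, -1.28 and -0.48 on wild-type TAC, 0.72, -0.61 and -1.50 on transgenic sham and 0.24, 0.02 and 0.22 on transgenic TAC arrays. The dimmer (A_55_P1973941) measured -3.63, -2.95 and -3.75, then -2.76, -2.95 and -2.49, then -1.98, -0.34 and 0.50, then -2.67, -1.28 and -1.88 on the same arrays. On the dimmer probe transgenic sham arrays lay above all wild-type arrays, and on the brighter the wild-type and transgenic sham arrays overlapped. The transgenic sham array that was highest on the dimmer probe was the lowest of all on the brighter. After sham the difference was -0.30 ± 0.55 on the brighter (adjusted p = 0.812) and 2.84 ± 0.57 on the dimmer probe, which passed (adjusted p = 0.0476). That call was lost with 11 of the 12 arrays left out, all but transgenic sham array 1 (2.28 to 3.08, adjusted p from 0.0536 to 0.176), and with slide as a block (2.39 ± 0.71, adjusted p = 0.181; 0.00709 to 0.502 over 24 alternatives). Within slide 3 the differences were 0.01 and 2.95. Over the 12 arrays the probes correlated at r = -0.36 with each other, and at -0.11 (brighter) and 0.95 (dimmer) with Asns. No statement on Slc7a5 as a gene can rest on one of these probes. Neither passed in the other comparisons. In wild-type hearts TAC gave -0.52 ± 0.55 on the brighter and 0.71 ± 0.57 on the dimmer probe. In transgenic hearts it gave 0.62 ± 0.55 and -1.335 ± 0.57. Genotype after TAC gave 0.85 ± 0.55 and 0.79 ± 0.57, the only comparison in which the probes shared a sign. There the arrays of both genotypes did not overlap on the brighter probe and overlapped on the dimmer.

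The light chain Slc7a11 (probe A_52_P368057) was well above background on transgenic sham array 3 and transgenic TAC array 2 only. It measured -7.98, -6.38 and -8.55 on wild-type sham, -8.70, -7.49 and -7.64 on wild-type TAC, -6.97, -4.11 and -3.69 on transgenic sham and -8.46, -5.62 and -6.35 on transgenic TAC arrays. The probe was not well above background on any wild-type array, nor on 4 of the 6 transgenic arrays. These values therefore carry no order beyond detection and no fold is given.

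Slc1a5, the glutamine exchanger, was the only gene of the 8 whose response to TAC passed the test of a difference between genotypes. Its brighter probe (A_51_P453475) measured -0.12, -0.07 and -0.26 on wild-type sham and 1.10, 0.83 and 1.50 on wild-type TAC arrays. The transgenic arrays measured 0.89, 0.57 and 0.83 after sham and -0.0009, 0.24 and 0.33 after TAC. Wild-type TAC arrays lay above wild-type sham arrays, and transgenic TAC arrays below transgenic sham arrays. In wild-type hearts the gene rose 2.46-fold (1.30 ± 0.18, adjusted p = 0.00201). In transgenic hearts the difference was -0.58 ± 0.18 and did not pass (adjusted p = 0.786). The interaction was -1.87 ± 0.25 (adjusted p = 0.0130), and was lost without wild-type sham array 1 (-1.89, adjusted p = 0.0510). Transgenic hearts were 1.89-fold higher after sham (0.92 ± 0.18, adjusted p = 0.0430) and 1.94-fold lower after TAC (-0.96 ± 0.18, adjusted p = 0.0237).

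The dimmer Slc1a5 probe (A_55_P2136318) followed the brighter, with r = 0.99 over 12 arrays, and passed in the same 4 comparisons. It measured -1.71, -1.80 and -1.88 on wild-type sham, -0.60, -1.05 and -0.34 on wild-type TAC, -0.84, -1.0001 and -0.995 on transgenic sham and -1.58, -1.51 and -1.38 on transgenic TAC arrays. Transgenic TAC arrays again lay between wild-type sham and transgenic sham arrays without overlap. Its differences were 1.14 ± 0.16 for TAC in wild-type hearts, 0.85 ± 0.16 for genotype after sham, -0.83 ± 0.16 for genotype after TAC and -1.68 ± 0.23 for the interaction (adjusted p from 0.00247 to 0.0436). The firmest of these calls on the brighter probe was TAC in wild-type hearts, kept in 24 of 25 alternatives. It was 0.93 within slide 3 and 0.97 ± 0.19 with slide as a block (adjusted p = 0.0612; 0.000277 to 0.0612 over 25 alternatives). The genotype difference after sham was lost with 10 of 12 arrays left out, all but wild-type TAC arrays 2 and 3 (0.85 to 1.01, adjusted p from 0.0526 to 0.150). It was 0.67 within slide 3 and 0.63 ± 0.19 with slide as a block (adjusted p = 0.189; 0.00925 to 0.323 over 25 alternatives). The genotype difference after TAC was lost without transgenic TAC array 1 or 2 or wild-type TAC array 1 or 3 (-0.98 to -0.78, adjusted p from 0.0614 to 0.0875), and was -0.98 within slide 2 and -0.96 ± 0.21 with slide as a block (adjusted p = 0.237; 0.00467 to 0.246 over 25 alternatives). With that block the interaction was -1.58 ± 0.27 (adjusted p = 0.170; 0.00186 to 0.170 over 24 alternatives).

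Slc1a4, which carries alanine, serine and other small neutral amino acids, fell 1.65-fold with TAC in wild-type hearts (probe A_55_P2109589). It measured -0.52, -0.22 and -0.47 on wild-type sham and -1.12, -0.92 and -1.33 on wild-type TAC arrays, which did not overlap. The transgenic arrays measured -0.66, -0.64 and -0.64 after sham and -0.54, -0.43 and -0.94 after TAC, which overlapped. The wild-type difference was -0.72 ± 0.16 (adjusted p = 0.0120), -0.56 within slide 3 and -0.64 ± 0.18 with slide as a block (adjusted p = 0.0915; 0.00284 to 0.171 over 25 alternatives). It was lost without wild-type TAC array 3 (-0.62, adjusted p = 0.0502). In transgenic hearts TAC gave 0.01 ± 0.16, and the interaction, 0.73 ± 0.22, missed the threshold (adjusted p = 0.0772). Genotype gave -0.25 ± 0.16 after sham and 0.49 ± 0.16 after TAC (adjusted p = 0.465 and 0.108).

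**Figure D2:**
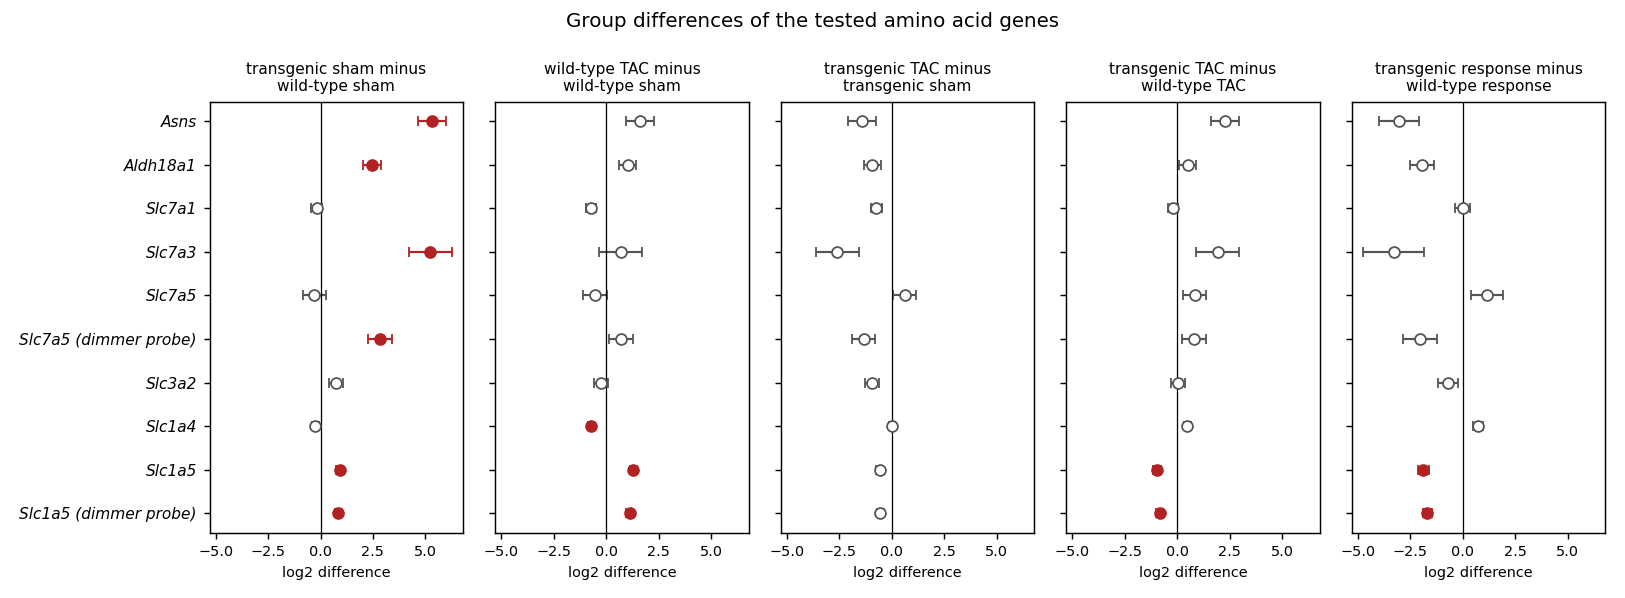
Differences of the 8 tested genes and their dimmer probes in 5 comparisons (x axis: log2 difference; points: limma estimate, lines: ± standard error; filled red: adjusted p under 0.05). After sham Asns lies at 5.29 and Slc7a3 at 5.23, and Slc1a5 is filled in each panel but TAC in transgenic hearts.

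Over the 6 transgenic arrays Slc7a3 spanned 5.75, Asns 3.78, Aldh18a1 2.10, Slc3a2 2.00 and Slc1a5 0.89 on the log2 scale. Asns, Slc7a3, Aldh18a1 and Slc3a2 put the 6 arrays in 1 order, from TAC array 1, TAC array 3, sham array 1, TAC array 2 and sham array 2 up to sham array 3. The dimmer Slc7a5 probe differed from it in placing sham array 1 below TAC array 3. Sham array 1 thus lay below TAC array 2 for these 5 probes, so that the surgery groups overlapped. Slc1a5 and Slc1a4 followed other orders, with all TAC arrays below all sham arrays for Slc1a5.

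**Figure D3:**
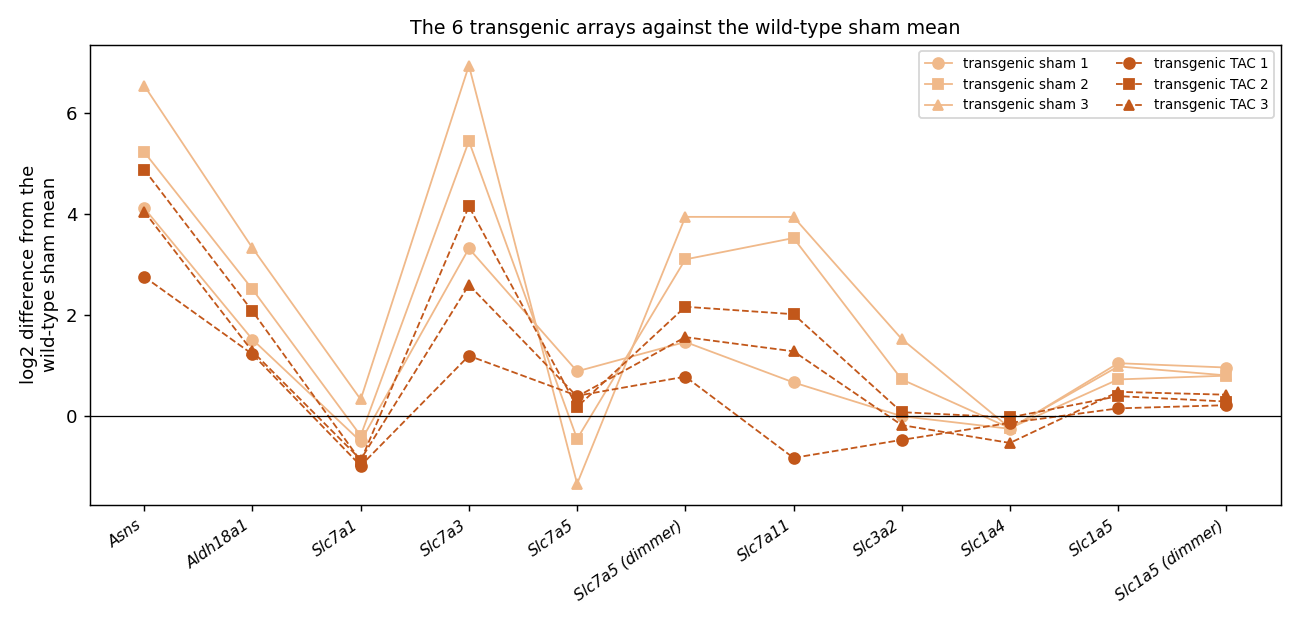
The 6 transgenic arrays as log2 differences from the wild-type sham mean (y axis) for each probe of the 9 measured genes (x axis; solid lines sham, dashed lines TAC). Lines join the probes of 1 array and carry no order; Asns, Aldh18a1, Slc7a3 and Slc3a2 place the arrays alike, with sham array 3 highest and TAC array 1 lowest.

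By Pearson correlation over the 12 arrays, the 8 named genes most like Asns among 15947 were Phgdh (0.98), Mthfd2 (0.98), Fgf21 (0.97), Psat1 (0.96), Atf5 (0.96), Nup205 (0.95), Brca2 (0.95) and Rtkn (0.95). Phgdh and Psat1 encode enzymes of serine synthesis, Mthfd2 a mitochondrial folate enzyme, Fgf21 a secreted metabolic hormone and Atf5 a stress-responsive transcription factor. These correlations include the differences between the 4 groups and between slides. Among the genes studied here Slc7a3 (0.95) and Aldh18a1 (0.95) held ranks 10 and 11. Slc3a2 followed at 0.63 and Slc1a5 at 0.36, while Slc1a4 (-0.07), Slc7a1 (-0.09) and the brighter Slc7a5 probe (-0.11) lay near 0. Of the 8, all but Nup205 (0.39, adjusted p = 0.0913) were higher in transgenic than in wild-type hearts after sham. Fgf21 was well above background on 0 of 3 wild-type sham and all 3 transgenic sham arrays. Its difference was at least 4.31 against the array floor, at which it did not pass (adjusted p = 0.0752, and 0.0136 on the measured signals). The other differences were 6.17 for Mthfd2 (adjusted p = 0.00470, with 2 of 3 wild-type sham arrays well above background), 4.65 for Phgdh (0.00805), 3.38 for Psat1 (0.0403), 2.71 for Brca2 (0.00751), 2.29 for Rtkn (9.33e-05) and 2.18 for Atf5 (0.0436). In the other comparisons only Mthfd2 and Rtkn passed by limma. Both rose with TAC in wild-type hearts (2.82 and 0.67, adjusted p = 0.0220 and 0.0125). Rtkn was higher in transgenic hearts after TAC (1.53, adjusted p = 0.001655), and the Mthfd2 interaction was -4.10 (adjusted p = 0.0434). The 8 genes were picked for a pattern over these 12 arrays that contains the difference after sham, so the values describe the choice and support nothing.

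Genes of the amino acid response formed a list of 18, all tested, that holds the eIF2 kinases and the ATF and C/EBP factors beside known targets of the response such as Chac1 and Vldlr, which are not regulators. After sham 1 was higher and 1 lower in transgenic hearts, with a median of 0.54 and 15 of 18 differences above 0. Among all named genes 0.787% passed in the higher and 0.763% in the lower direction there. Atf5, a target of the eIF2 pathway, measured 4.04, 4.27 and 4.17 on wild-type sham and 5.38, 6.50 and 7.15 on transgenic sham arrays, which did not overlap (2.18 ± 0.42, adjusted p = 0.0436). Vldlr, a lipoprotein receptor, was lower (-0.64 ± 0.10, adjusted p = 0.0249), and Chac1, a glutathione-degrading enzyme, at 2.51 ± 0.60 did not pass (adjusted p = 0.0760). With TAC in wild-type hearts 4 rose and 1, Vldlr, fell, against the same 12.3% and 11.8% of all named genes, with a median of 0.54. Nupr1, a stress-induced chromatin protein, rose by 2.35 ± 0.53, Eif2ak2, the eIF2 kinase activated by double-stranded RNA, rose by 0.65 ± 0.11, and Vldlr fell by 0.50 ± 0.10 (adjusted p = 0.0141, 0.00488 and 0.00949). In transgenic hearts TAC changed 0 of 18 by limma, with a median of -0.54 and 2 differences above 0. After TAC, 0 were higher and 2 lower in transgenic hearts, against 1.75% and 2.81% of all named genes. The median was -0.09, and 0.07 with slide as a block. The interaction passed for 1 gene in the higher and 3 in the lower direction (median -0.86), against 3.99% and 4.4% of all named genes.

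Of 40 other amino acid transporters 32 were tested, and after sham 0 passed by limma in either direction, with a median of -0.07 that turned to 0.05 under median scaling. Among all named genes 0.787% were higher and 0.763% lower in that comparison. Slc6a9, a glycine transporter, measured 2.74 ± 0.60 and Slc38a1, a sodium-coupled glutamine transporter, 2.04 ± 0.42, and neither passed (adjusted p = 0.0607 and 0.0518), although their arrays did not overlap. With TAC in wild-type hearts 4 rose and 5 fell (median 0.07, and -0.11 with no filter on dim probes). Among all named genes 12.3% rose and 11.8% fell, so the shares of the transporters lie near that background. The glutamate transporters Slc1a3 and Slc1a2 were among those that passed, with 1 and 2 of 3 wild-type sham arrays well above background (adjusted p = 0.00146 and 0.00435). On the measured signals their differences were 3.52 ± 0.43 and 2.02 ± 0.34. With dim values raised to the array floor they were 2.38 ± 0.75 and 1.90 ± 0.74, and neither passed (adjusted p = 0.0602 and 0.123). Part of the wider error comes from outside this comparison. On transgenic sham array 2 the floor was -1.80. Its dim values, -3.65 for Slc1a3 and -3.90 for Slc1a2, were raised to it and entered the shared spread. The same holds for the floor fits of these genes below. The glutamine transporter Slc38a3 measured -1.10 ± 0.17 and fell (adjusted p = 0.00291). Slc1a3 measured -7.28, -5.91 and -5.72 on wild-type sham, -2.91, -2.98 and -2.44 on wild-type TAC, -4.93, -3.65 and -4.46 on transgenic sham and -4.66, -4.03 and -4.39 on transgenic TAC arrays. The wild-type TAC arrays stood above all others. The interaction shares arrays with the comparisons for which Slc1a3 was named. It passed on the measured signals (-3.54 ± 0.61, adjusted p = 0.0195) and not at the floor (-3.00 ± 1.05, adjusted p = 0.138). In transgenic hearts TAC changed 0 of 32 (median -0.02, and 0.11 under quantile normalization). After TAC genotype gave 0 higher and 1 lower (median 0.04), against 1.75% and 2.81% of all named genes. The lower 1 was Slc1a2 at -1.62 ± 0.34 (adjusted p = 0.0366, and 0.284 at the floor). The interaction passed for 0 genes in the higher and 2 in the lower direction (median -0.00), against 3.99% and 4.4% of all named genes.

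Of 22 other enzymes around aspartate, glutamate, proline and arginine 21 had a probe and 18 were tested. In wild-type hearts 2 rose and 7 fell with TAC, where 12.3% of all named genes rose and 11.8% fell (medians -0.37 and -0.05). Aldh4a1, whose enzyme makes glutamate in the last step of proline breakdown, fell (-1.19 ± 0.16, adjusted p = 0.00199). The urea cycle enzyme Cps1 measured -1.47 ± 0.23, the alanine transaminase Gpt -1.43 ± 0.24, and the mitochondrial aspartate transaminase Got2 -0.64 ± 0.11 (adjusted p = 0.00338, 0.00457 and 0.00404). After sham 0 were higher and 2 lower in transgenic hearts (median -0.14): Aldh4a1 (-1.04 ± 0.16, adjusted p = 0.0207) and Oat, ornithine aminotransferase (-0.68 ± 0.12, adjusted p = 0.0311). Among all named genes 0.787% were higher and 0.763% lower. Aldh4a1 measured 3.61, 3.52 and 3.80 on wild-type sham, 2.59, 2.56 and 2.21 on wild-type TAC, 2.72, 2.52 and 2.57 on transgenic sham and 3.23, 2.85 and 2.72 on transgenic TAC arrays. Wild-type sham arrays stood above all others. In transgenic hearts TAC changed 0 of 18 (median -0.01, and 0.01 under quantile normalization). After TAC genotype gave 0 higher and 1 lower (median 0.07), against 1.75% and 2.81% of all named genes. The interaction passed for 4 genes in the higher and 1 in the lower direction (median 0.46), against 3.99% and 4.4% of all named genes. With slide as a fixed block, limma called 0 genes of the amino acid response, 1 transporter and 0 of these enzymes for TAC in wild-type hearts and none of the 3 lists in any other comparison. As a random block it called 5, 8 and 9 of them for TAC in wild-type hearts.

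**Figure D4:**
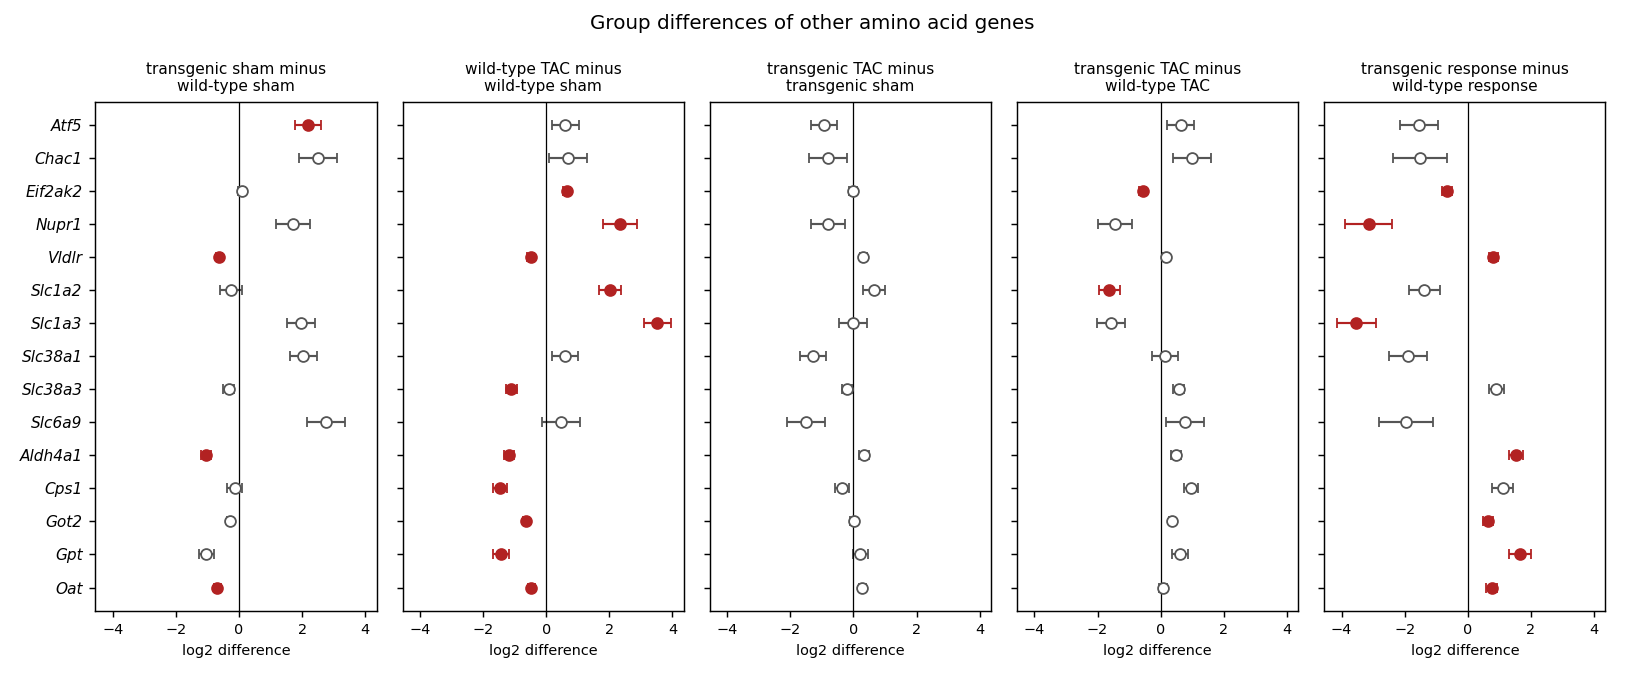
Differences of 15 other amino acid genes in 5 comparisons (x axis: log2 difference; points: limma estimate, lines: ± standard error; filled red: adjusted p under 0.05). The values of Slc1a3 rest on 1 of 3 wild-type sham arrays well above background; Aldh4a1 is lower both with TAC in wild-type hearts and with the transgene after sham.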

How the data were processed

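Per the labels, left ventricular RNA was hybridised in a single colour (Cy3) to 12 Agilent mouse arrays. Per the file headers, Feature Extraction 10.7.3.1 wrote each spot's intensity, both as a background-subtracted processed signal and as median brightness. When set against them, the deposited log2 table equalled processed signals divided by the array's 75th percentile and centred on probe medians. The submitters' processing notes name RMA, with no role. A time label gives 0 for sham groups, while source names and protocol give day 21.

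Outlier spots were left out of 43020 non-control spots, replicate spots averaged, and each array's 75th percentile subtracted after log2. Of 39429 probes, 26424 were named through their accession with the RefSeq table of GRCm38.p6 (the array design is annotated on mm9, per the file headers; no coordinates were taken from it). A probe entered the test if 3 of the 12 arrays showed it well above background; fits used limma 3.58.1 in R 4.3.3 as 4 group means and 5 contrasts (8 residual and 1.8 prior degrees of freedom, median residual SD 0.28), two-sided. The number of arrays limits the precision.

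The genes and lists were chosen with earlier results of these data known. Named are the 10 genes, from each list up to 6 genes (the 3 with the smallest p for TAC in wild-type hearts and for genotype after sham), and the 8 genes most like Asns. Alternatives were quantile normalization, median scaling, normexp (offset 50, on median brightness), the authors' table, detection required on no array or on all 12, keeping outlier spots, 1 probe per gene, the compared groups alone, replicate number or slide as a block, each array left out and, chosen after seeing the data, signals not well above background raised to each array's lowest well-measured one. No 2 arrays held identical values. Tested on simulated data over 30161 probes, 68% of 100 probes moved by 2 were called for genotype after sham, and 69% of 100 moved by -2 for TAC in wild-type hearts, with 6 false calls each.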

Additional observations from a re-analysis of the deposited data

Results flagged for a closer look

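The response to TAC differed between wild-type and transgenic hearts, by the interaction term in limma, for Slc1a5 (-1.87, and -1.68 on its dimmer probe), Slc1a3 (-3.54), Nupr1 (-3.15), Eif2ak2 (-0.66), Vldlr (0.81), Aldh4a1 (1.52), Gpt (1.65), Got2 (0.64) and Oat (0.75). With slide as a fixed block none of these passed, while with slide as a random block all of them did. All of them but Slc1a5 were named for having the smallest p in their list, for TAC in wild-type hearts or genotype after sham. Those comparisons share the wild-type sham arrays with the interaction. Genes extreme on these arrays were therefore favoured in advance, and the interaction calls of the list genes describe the choice. Mthfd2, picked for its likeness to Asns over the same arrays, passed the interaction by limma as well (-4.10, adjusted p = 0.0434). With slide as a fixed block, or without wild-type sham array 1, none of all probes passed. At the array floor Slc1a3 (-3.00, adjusted p = 0.138) and Nupr1 (-3.15, adjusted p = 0.0532) did not pass. Nupr1 was well above background on every array, so the floor changed none of its signals, while its standard error and adjusted p rose.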

How the results depend on the processing

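Counts of the 8 tested genes that passed were as follows. For genotype after sham the count of 4 became 2 under quantile normalization, 3 under median scaling, 1 under normexp, 1 with no filter, 3 of the 7 then tested with a filter on all 12 arrays, 0 in the compared groups alone, 1 with replicate number as a block, 0 with slide as a fixed and 3 as a random block, 2 with the array floor, and 1 to 4 with an array left out. For TAC in wild-type hearts the count of 2 became 1 under normexp, 3 with a filter on all 12 arrays (Slc7a1 gained), 4 in the compared groups alone (Asns and Aldh18a1 gained), 0 with slide as a fixed block, and 1 to 4 with an array left out. For genotype after TAC the count of 1 became 0 under normexp, 3 with a filter on all 12 arrays, 0 in the compared groups alone, 0 with slide as a fixed block, and 0 to 1 with an array left out. For the interaction the count of 1 became 0 under normexp, 4 with a filter on all 12 arrays, 0 with slide as a fixed block, and 0 to 3 with an array left out. TAC in transgenic hearts gave 0 of the 8 under every alternative run. With replicate number as a block Asns alone kept its call after sham (5.29, adjusted p = 0.0136). Deviations of same-numbered arrays from their group means correlated at -0.38 to 0.17 over the probes tested. These values show no pairing by number and cannot exclude one.

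The calls of single probes were unchanged in 1078 comparisons under an alternative, lost in 112, gained in 15, and turned sign in 20. None of the 20 had passed. Slc1a4 for TAC in transgenic hearts turned to -0.0518 under median scaling, -0.20 with slide as a fixed and -0.0176 as a random block, and -0.0366 or -0.0903 without transgenic TAC array 1 or 2 (-0.0903 to 0.16 with an array left out). The brighter Slc7a5 probe turned to -0.37 for TAC in transgenic hearts and to 0.14 for genotype after sham with slide as a fixed block, and to 0.16 and 0.22 after sham without wild-type or transgenic sham array 3 (-0.90 to 0.22 with an array left out). Slc3a2 for genotype after TAC turned to -0.0814 without transgenic TAC array 2 and to -0.0774 without wild-type TAC array 2 (-0.0814 to 0.19 with an array left out). The Slc7a1 interaction turned to 0.11 under normexp, 0.0016 in the deposited table, 0.0024 with outlier spots kept, 0.54 with slide as a fixed and 0.0674 as a random block, and was -0.18 to 0.25 with an array left out. Causes were not tested.

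Over all 30347 probes the larger shifts were as follows, with most smaller ones left out. Calls for TAC in wild-type hearts went from 6141 to 1424 under normexp and 304 with slide as a fixed block. For genotype after sham they went from 379 (203 higher) to 184 (138 higher) under quantile normalization, 202 (149 higher) under median scaling, 47 under normexp, 122 with no filter, 1236 with the filter on all arrays, 33 in the compared groups alone, 116 with the replicate block, 47 with slide fixed and 203 with the array floor. For genotype after TAC 1172 became 463 under median scaling, 39, 385, 2820, 74, 430, 11 and 661 under normexp and the settings in that order, and for the interaction 2035 (1084 higher) became 991 (372 higher) under quantile normalization, 692 (222 higher) under median scaling, 0 under normexp, 588 with no filter, 3624 with the filter on all arrays, 744 with the replicate block, 0 with slide fixed and 1252 with the array floor. With slide as a random block the counts were 6156, 429, 904 and 1957 in the order of these comparisons. With an array left out they ran from 3193 (without wild-type TAC array 3) to 7125, from 76 (without wild-type sham array 1) to 737 (without transgenic sham array 1), from 179 (without transgenic TAC array 1) to 1532, and from 0 (without wild-type sham array 1) to 2626, and TAC in transgenic hearts from 0 to 2. Dim probes limit Slc7a3, Slc7a11, Slc1a3, Slc1a2 and Fgf21.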
